A study of Homo sapiens with 4 samples.

Results

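The spectrin-based membrane skeleton was examined through 8 genes: the spectrins SPTAN1, SPTB and SPTBN1, the ankyrin ANK1, the protein 4.1 gene EPB41, EPB42 (protein 4.2), and the adducins ADD1 and ADD2. They were picked by name from 64252 Ensembl genes, with earlier dBET1 and DMSO results of these libraries known, so their own changes, and the counts of them past a threshold, are a description and no independent evidence. RNA came from cells of 1 line labelled NB4, a promyelocytic leukemia line with the PML-RARa fusion, treated for 24 h either with 8 μM dBET1 (2 libraries) or with the same volume of DMSO, its solvent (2 libraries). dBET1 is a degrader: one end binds BET bromodomain proteins and the other binds CRBN, an adaptor of an E3 ubiquitin ligase. Nothing in the labels says whether the 2 libraries of a group came from separate cultures, so the spread between them may be technical.

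Spectrins are long rod proteins in which an alpha and a beta chain pair side by side, and the pairs join end to end into tetramers that form a mesh under the plasma membrane. Ankyrin ties beta spectrin to membrane proteins such as band 3, while protein 4.1 and adducin tie the ends of spectrin to short actin filaments. In the red cell, where beta-I spectrin (SPTB) is the beta chain, this mesh gives the cell its shape and elasticity. Most other cells use alpha-II spectrin (SPTAN1) with beta-II spectrin (SPTBN1).

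The libraries held 28019956 to 34685645 counts, and 17971 genes passed the count filter and were tested. Levels are given as CPM, counts scaled to the TMM-adjusted library size and multiplied by 1e6. A gene was called where edgeR's quasi-likelihood test gave an adjusted p under 0.05 and the absolute log2 fold change was above 1. The labelled line was checked against its markers. Of 10 promyelocyte markers, ELANE and CTSG were at 0 in all 4 libraries, and 8 summed to 3.52 to 3.68 CPM with DMSO and 4.49 to 6.0 CPM with dBET1. The others were MYB, a factor of many blood progenitors, at 215 ± 17.4 CPM with DMSO and 59.5 ± 1.44 CPM with dBET1, and CD33, a myeloid surface protein, at 10.9 ± 1.43 and 10.8 ± 0.317 CPM (SD, n = 2). All 10 summed to 218 to 241 CPM with DMSO and 75.5 CPM with dBET1. The 14 erythroid markers summed to 9057 to 10150 CPM with DMSO and 5302 to 5344 CPM with dBET1, and AHSP was the 1 gene among them left out by the count filter. The high erythroid markers and the near absence of granule genes go against the label of a promyelocytic line, while MYB and CD33 were present, and the label is kept here only as a name.

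Of the 8 genes, 2 were higher and 1 was lower past both thresholds, against 25.4% of all tested genes called in either direction (16.9% higher and 8.54% lower). SPTAN1 and SPTBN1, the chains of the general spectrin pair, were the higher ones, 11.2-fold and 2.05-fold, and ADD2 was the lower one, 3.59-fold. SPTB, the red cell beta chain, was 1.82-fold lower and EPB41 1.26-fold higher, both with an adjusted p under 0.05 but inside the fold limit, so that 5 of the 8 passed the adjusted p, against 55.6% of all tested genes. ANK1, ADD1 and EPB42 did not pass the adjusted p. The median log2 fold change of the 8 genes was 0.039, beside 0.048 over all tested genes and -0.40 over the 2226 with a mean of at least 100 CPM, where 7 of the 8 lie (a limit chosen after the data were seen). All 8 passed the count filter, EPB42 at 6 to 20 counts. In each of the 8 the dBET1 and DMSO libraries did not overlap, as in 79.3% of all tested genes.

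The promoters of the 3 genes past both thresholds and of SPTB are shown because these genes carry the changes described. Each run is 300 bases, from 250 before to 50 after a RefSeq start (GRCh38.p14), read 5′ to 3′ on the strand of the gene. Capitals mark matches, on either strand, to the motif bound by GATA factors (AGATAA, also with thymine as its first or guanine as its last letter). They also mark the motif bound by Kruppel-like factors (CCNCNCCC), whose matches may overlap one another, and the TATA box, searched as TATAAA. The matches of different motifs are marked alike. Where RefSeq lists more than 1 start, the outermost is printed, and gene counts do not show which start was used.
SPTAN1 promoter, chr9:128552337-128552636, forward strand: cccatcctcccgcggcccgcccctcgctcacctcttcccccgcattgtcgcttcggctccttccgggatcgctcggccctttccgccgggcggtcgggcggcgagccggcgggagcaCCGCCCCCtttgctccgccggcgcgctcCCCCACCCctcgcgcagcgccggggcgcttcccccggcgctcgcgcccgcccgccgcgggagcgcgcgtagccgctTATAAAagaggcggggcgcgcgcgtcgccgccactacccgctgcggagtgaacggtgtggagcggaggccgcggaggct
SPTBN1 promoter, chr2:54456077-54456376, forward strand: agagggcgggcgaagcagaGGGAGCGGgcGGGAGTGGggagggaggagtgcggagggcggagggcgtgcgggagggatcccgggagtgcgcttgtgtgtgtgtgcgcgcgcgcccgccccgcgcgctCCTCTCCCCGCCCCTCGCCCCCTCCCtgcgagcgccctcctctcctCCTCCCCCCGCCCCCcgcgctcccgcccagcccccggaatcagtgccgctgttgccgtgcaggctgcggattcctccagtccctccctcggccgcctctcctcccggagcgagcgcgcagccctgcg
SPTB promoter, chr14:64879858-64880157, reverse strand: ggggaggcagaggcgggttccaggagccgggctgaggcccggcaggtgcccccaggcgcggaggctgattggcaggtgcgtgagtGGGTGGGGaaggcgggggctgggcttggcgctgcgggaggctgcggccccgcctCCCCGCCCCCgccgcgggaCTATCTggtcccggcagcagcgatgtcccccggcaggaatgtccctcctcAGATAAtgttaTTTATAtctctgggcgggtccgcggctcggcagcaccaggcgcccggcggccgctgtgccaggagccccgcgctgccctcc
ADD2 promoter, chr2:70768151-70768450, reverse strand: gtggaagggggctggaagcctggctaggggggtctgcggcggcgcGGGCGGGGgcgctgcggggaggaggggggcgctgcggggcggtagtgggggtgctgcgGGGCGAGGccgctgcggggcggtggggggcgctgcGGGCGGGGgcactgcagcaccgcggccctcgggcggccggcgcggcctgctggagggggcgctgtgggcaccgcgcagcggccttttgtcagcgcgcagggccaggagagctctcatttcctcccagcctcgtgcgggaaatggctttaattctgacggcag

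RefSeq promoters were used for 7 of the 8 genes, all but ANK1, and cover 11 starts. No match to the GATA factor motif lay in the printed windows of SPTAN1, SPTBN1 and ADD2, while the SPTB window held 2. The second listed starts of SPTBN1 and ADD2 held 1 each and that of SPTB 0, with 0 TATA matches and 10 CpG. EPB41, not shown, held 1 at its first start and 0 at its second. That motif occurred in 25.0% of 35116 RefSeq promoters. The EPB42 window, not shown, also held 2. Kruppel-like motifs, found in 56.2% of all promoters, occurred in each of the 4 windows: at 2 positions in SPTAN1, 9 in SPTBN1, 3 in SPTB and 3 in ADD2. A TATA box match, found on either strand in 11.5% of promoters, lay in the SPTAN1 and SPTB windows. In SPTAN1 it lay on the strand of the gene and in SPTB on the opposite strand. The E-box, searched as CACGTG and found in 7.26% of promoters, was in none of the 11 windows. SPTAN1 had the most CpG-rich window of these, with 53 CpG and 78% G and C, and 0.604% of all promoters held as many CpG. SPTBN1 held 37 CpG, ADD2 34, SPTB 28 and EPB42 1.

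SPTAN1 (ENSG00000197694, chromosome 9 of hg38, 128552558 to 128633662, forward strand) encodes alpha-II spectrin, the alpha chain of most cells other than red cells. It was counted 1433 and 1260 times with DMSO, or 43.9 and 44.8 CPM. The dBET1 libraries held 14524 and 15556 counts, or 484 and 509.6 CPM. Both dBET1 libraries stood far above both DMSO libraries, and the replicates of each group lay close together. The mean went from 44.4 ± 0.651 to 497 ± 18.1 CPM (SD over 2 libraries per group), a log2 fold change of 3.48 with a standard error of 0.0780. Among all tested genes it ranked 472 by log2 fold change, with 2.62% of genes higher. Per kilobase of exon its level ranked 8687 among 56105 genes with DMSO and 1219 with dBET1. Its exons share 282 bases with an opposite-strand noncoding gene, ENSG00000280758, which has no entry in the counts used here. They share 10 bases with DYNC2I2 on the opposite strand, which held 2988 and 2794 counts in DMSO and 2255 and 2248 in dBET1 libraries.

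**Figure D1:**
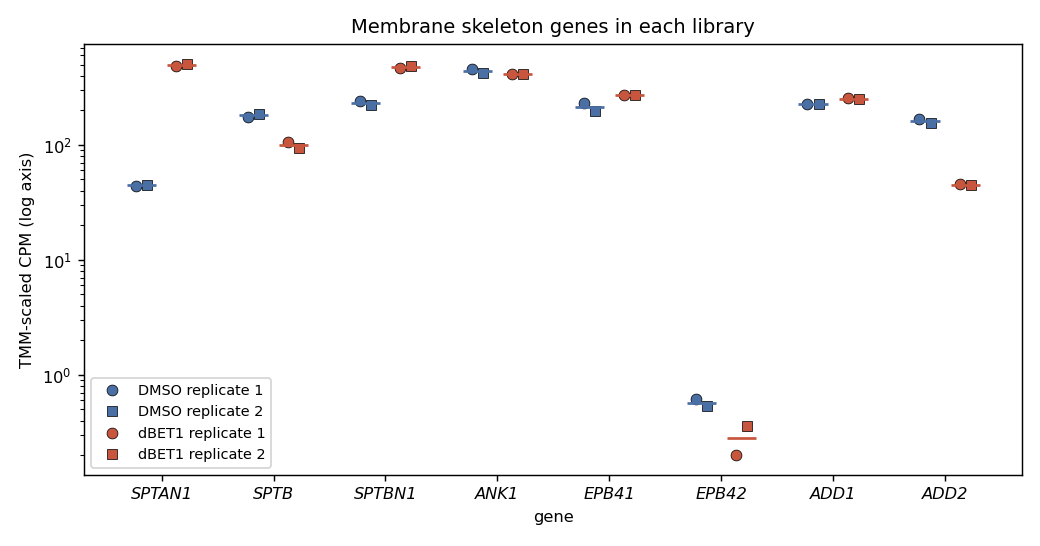
CPM of each of the 8 genes (y axis, log scale) in every library, with DMSO in blue and dBET1 in red, circles for replicate 1, squares for replicate 2 and bars for group means. SPTAN1 lies at 43.9 and 44.8 CPM with DMSO and at 484 and 509.6 CPM with dBET1, and EPB42 stays under 1 CPM in all 4 libraries.

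SPTBN1 (ENSG00000115306, chromosome 2, 54456317 to 54671446, forward strand) encodes beta-II spectrin, the usual partner of SPTAN1. Its levels were 239 and 223 CPM with DMSO and 463 and 481 CPM with dBET1. The 2 groups did not overlap, and the gap between them was many times the gap within either. The log2 fold change was 1.03 with a standard error of 0.0730, close to the limit of 1. It was 0.95 without DMSO replicate 2, 0.99 without dBET1 replicate 2 and 0.98 with no count filter, each inside the limit. The 2 antisense genes that share exon bases with SPTBN1 held at most 34 counts in any library.

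SPTB (ENSG00000070182, chromosome 14, 64746283 to 64879907, reverse strand) encodes beta-I spectrin, the red cell beta chain, in which inherited defects cause spherocytosis and elliptocytosis. It had 176 and 187 CPM with DMSO and 105 and 94.4 CPM with dBET1. Both dBET1 libraries were below both DMSO libraries. The log2 fold change was -0.86 with a standard error of 0.0854, and it stayed inside the limit of 1 under all 11 alternatives.

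SPTBN4 and SPTBN5 were the other spectrin genes examined, and both were tested. SPTBN5 was called higher, against 25.4% of all tested genes called in either direction. SPTBN4 was lower by the adjusted p alone, against 27.6% of all tested genes. Its log2 fold change of -0.996 lay close to the limit of 1, and DESeq2 called it lower past both thresholds. SPTBN5, the large beta-V chain, had 5 and 3 counts with DMSO and 20 and 26 with dBET1, a log2 fold change of 2.50 (adjusted p = 0.00572, edgeR). Without dBET1 replicate 2 its log2 fold change was 2.30 and it was not called.

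Levels of different genes were compared as CPM per kilobase of exon, since long transcripts give more counts. On this scale the level of SPTAN1 divided by that of SPTBN1, its usual partner, was 0.206 and 0.226 with DMSO, against 1.17 and 1.19 with dBET1. SPTBN1 was the higher of the pair in both DMSO libraries and SPTAN1 in both dBET1 libraries. Such ratios are taken within a library, so the scaling between libraries does not enter them. In bulk RNA, fewer cells of one type and less RNA per cell cannot be told apart.

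Among the beta spectrin genes SPTB, SPTBN1, SPTBN4 and SPTBN5, SPTB and SPTBN1 were level with DMSO, at 48.6% ± 1.92 and 49.4% ± 2.59 of their summed level (SD, n = 2). SPTB was the larger in DMSO replicate 2 and SPTBN1 in DMSO replicate 1, so on this length the 2 do not differ beyond their spread. With the longest annotated transcript as length, SPTBN1 was the larger in both DMSO libraries, at 54.9% ± 2.54 against 43.4% ± 1.98. With dBET1, SPTBN1 made up 78.3% ± 1.84 and SPTB 20.7% ± 1.65. SPTBN4 and SPTBN5 stayed under 2.49% in each library. The summed level of the 4 genes went from 25.3 ± 0.101 to 32.6 ± 0.0944 CPM per kb.

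**Figure D2:**
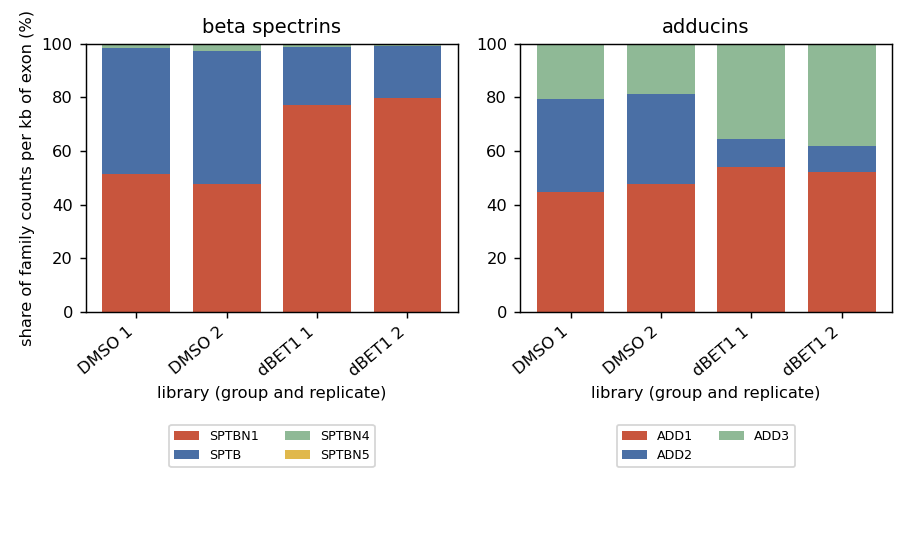
Share of each gene in the summed level of its set (y axis, percent of CPM per kb of exon) in the 4 libraries on the x axis, for 4 beta spectrin genes and the 3 adducins. SPTBN1 makes up 51.2% and 47.6% with DMSO and 77.0% and 79.7% with dBET1, and ADD2 goes from about 34.3% to 9.92% of the adducins on average.

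ANK1 (ENSG00000029534, chromosome 8, 41653220 to 41896741, reverse strand) encodes ankyrin-1, the erythroid ankyrin that holds beta spectrin to band 3. It was the most abundant of the 8 genes per kilobase with DMSO, at 39.8 ± 1.94 CPM per kb (SD, n = 2), and also with dBET1, at 37.7 ± 0.0315 CPM per kb. With the longest annotated transcript as length SPTAN1 was first with dBET1, at 60.4 ± 2.204 CPM per kb. ANK1 at 49.0 ± 0.0410 and ADD1 at 48.8 ± 0.839 CPM per kb came next and did not differ beyond their spread. The levels of ANK1 were 453 and 422.5 CPM with DMSO and 414 and 415 CPM with dBET1. The log2 fold change was -0.078 with a standard error of 0.0706, and with total counts only it was 0.13. ANK1 made up at least 99.9% of the ankyrin level in every library. ANK2 had 0 counts in all 4 libraries, and ANK3, an ankyrin of neurons and epithelia, had 17 to 29 counts. Counts of ANK3 overlapped between groups (log2 fold change 0.20, adjusted p = 0.710, edgeR).

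EPB41 (ENSG00000159023, chromosome 1, 28887091 to 29120046, forward strand) encodes protein 4.1R, which strengthens the joint of spectrin and actin. Its levels were 232 and 196 CPM with DMSO and 272 and 269 CPM with dBET1. The DMSO libraries lay farther apart than the dBET1 libraries. The log2 fold change was 0.34 with a standard error of 0.0909, and 0.19 to 0.43 when any 1 library was dropped. Protein 4.2, encoded by EPB42 (ENSG00000166947, chromosome 15, 43197227 to 43221018, reverse strand), binds band 3 and ankyrin in red cells. Its counts were 20 and 15 for DMSO and 6 and 11 for dBET1, the lowest of the 8 genes. At this depth its log2 fold change of -1.02 had a standard error of 0.519 and ran from -1.52 to -0.67 with 1 library left out.

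The adducins cap the fast-growing end of actin filaments and recruit spectrin to them, as a pair of an alpha chain (ADD1) with a beta (ADD2) or a gamma chain (ADD3). ADD2 (ENSG00000075340, chromosome 2, 70607618 to 70768225, reverse strand) is the chain of red cells and brain. It had 168 and 156 CPM with DMSO and 45.8 and 44.5 CPM with dBET1. The 2 dBET1 libraries were nearly equal and far below both DMSO libraries. The log2 fold change was -1.84 with a standard error of 0.0832. ADD1 (ENSG00000087274, chromosome 4, 2843844 to 2930076, forward strand), the chain found in nearly all cells, had 225 and 229 CPM with DMSO and 256 and 249.8 CPM with dBET1. Its log2 fold change was 0.16 with a standard error of 0.0683. ADD3, the gamma chain, rose from 47.7 ± 4.45 to 86.8 ± 5.01 CPM (SD, n = 2; log2 fold change 0.86, adjusted p = 0.000251, edgeR), inside the fold limit.

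Within the adducin family, ADD1 was the largest member per kilobase in all 4 libraries, at 46.1% ± 1.996 with DMSO and 53.1% ± 1.45 with dBET1 (SD, n = 2). ADD2 was second with DMSO at 34.3% ± 0.770 and last with dBET1 at 9.92% ± 0.302. ADD3 went the other way, from 19.6% ± 1.23 to 36.9% ± 1.76. The summed adducin level was 37.2 ± 1.14 CPM per kb with DMSO and 35.9 ± 0.365 CPM per kb with dBET1. With the longest annotated transcript as length it went the other way, from 72.1 ± 1.38 to 73.35 ± 0.197 CPM per kb.

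**Figure D3:**
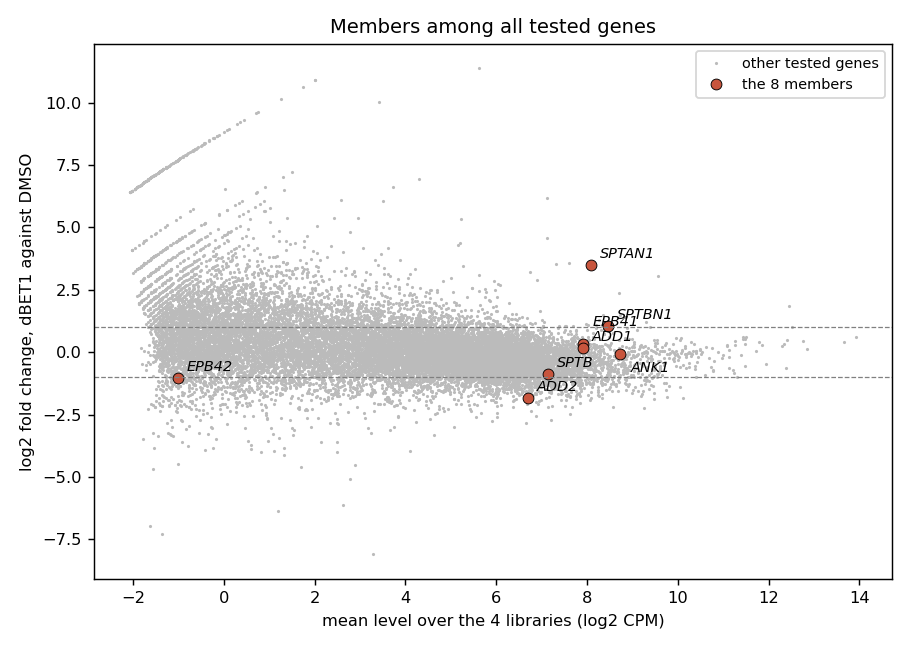
Log2 fold change (y axis) against the mean level over the 4 libraries (x axis, log2 CPM) for all 17971 tested genes in grey and the 8 genes in red, with dashed lines at the fold limit of 1. SPTAN1 lies at 3.48 and ADD2 at -1.84, and 7 of the 8 genes have a mean of at least 100 CPM.

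Per kilobase with DMSO, ANK1 was followed by ADD1 at 17.1 ± 0.217, ADD2 at 12.8 ± 0.679, SPTBN1 at 12.5 ± 0.604, SPTB at 12.3 ± 0.533, EPB41 at 10.7 ± 1.25, SPTAN1 at 2.69 ± 0.0395 and EPB42 at 0.196 ± 0.0191 CPM per kb (SD, n = 2). ADD2, SPTBN1 and SPTB, neighbours in this order, did not differ beyond their spread, and SPTB and EPB41 differed by less than the sum of their SDs. With dBET1 the order was ANK1, SPTAN1 at 30.1 ± 1.10, SPTBN1 at 25.6 ± 0.674, ADD1 at 19.1 ± 0.328, EPB41 at 13.5 ± 0.0923, SPTB at 6.75 ± 0.520, ADD2 at 3.56 ± 0.0723 and EPB42 at 0.0955 ± 0.0387 CPM per kb. SPTAN1 moved from the seventh place to the second, and each gap between neighbours was wider than the SDs beside it. With the longest transcript as length SPTAN1 moved from the seventh place to the first, and EPB41 lay above SPTBN1, ADD2 and SPTB with DMSO.

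The genes whose centred log2 CPM values over the 4 libraries lay nearest to those of each called gene were listed, from 9132 candidates with a mean of at least 10 CPM. For SPTAN1 these were H6PD, SGMS1-AS1 and TAFA2, at Euclidean distances of 0.0921, 0.0927 and 0.147 log2 units. For SPTBN1 they were SDCBP, ZNF446 and C2orf68, at 0.0201, 0.0262 and 0.0295. For ADD2 they were XBP1, LDHA and MYB, at 0.0460, 0.0541 and 0.0761. With 4 libraries in 2 groups such a distance mostly compares fold changes.

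The lists of partner genes held 52 genes, of which 46 were tested, and 4 were called higher and 1 lower (10.9% called, against 25.4% of all tested genes). At an adjusted p under 0.05 without the fold limit, 14 were higher and 19 lower, against 28.0% and 27.6% of all tested genes, and 13 did not pass. Their median log2 fold change was -0.12, beside 0.048 over all tested genes. It was -0.40 over tested genes with a mean of at least 100 CPM, a level that many of the partner genes reach. With total counts only, 7 were higher and 0 lower past both thresholds.

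Among the 9 other ankyrin, adducin and protein 4.1 genes, 5 were tested and 0 passed both thresholds, while 3 (ADD3, EPB41L1 and EPB41L5) were higher by edgeR at an adjusted p under 0.05. At an unadjusted p under 0.05 the count was also 3, and DESeq2 called 0 past both thresholds and 2 higher by its adjusted p alone. Over all tested genes edgeR put 25.4% past both thresholds and 28.0% higher at the adjusted p alone. EPB41L2 was a large part of the protein 4.1 level, 47.6% ± 0.0507 with DMSO and 39.4% ± 0.730 with dBET1, beside 40.7% ± 0.647 and 45.6% ± 0.0784 for EPB41 (SD, n = 2). With the longest transcript as length EPB41 was the larger in both groups, at 50.2% ± 0.571 against 43.4% ± 0.150 with DMSO.

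All 16 genes of the actin junction were tested, and TMOD2 alone was called (6.25%, against 25.4% of all tested genes). TMOD2, a tropomodulin that caps the slow end of actin filaments, rose from 3.99 ± 0.860 to 11.9 ± 1.12 CPM (SD, n = 2; log2 fold change 1.57, adjusted p = 0.000597, edgeR). TMOD1, the tropomodulin of red cells, had 34.5 and 35.97 CPM with DMSO and 34.0 and 29.9 CPM with dBET1, a log2 fold change of -0.14 (adjusted p = 0.295, edgeR), or 0.070 with total counts only. DMTN (dematin), which bundles actin at the junction, rose from 76.4 ± 6.43 to 126 ± 10.8 CPM (SD, n = 2; log2 fold change 0.72, adjusted p = 0.000598, edgeR). At an adjusted p under 0.05 alone, 5 genes of this list were higher and 6 lower, against 28.0% and 27.6% of all tested genes. The lower ones included MPP1, the scaffold that joins protein 4.1 to glycophorin C, at a log2 fold change of -0.95.

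Of 14 membrane anchor genes, 12 were tested, 2 were called higher and 1 lower (25%, against 25.4% of all tested genes). GYPC, glycophorin C, which binds protein 4.1, had 224 and 261 CPM with DMSO and 119 and 115 CPM with dBET1. It fell by 1.06 on the log2 scale (standard error 0.0914, adjusted p = 6.69e-05, edgeR), and by 0.97 without DMSO replicate 2. SLC4A1, the band 3 anion exchanger to which ankyrin-1 binds, was counted 22 and 9 times with DMSO and 68 and 81 times after dBET1. It rose by 2.28 on the log2 scale (standard error 0.408, adjusted p = 0.00229, edgeR), from 1.83 to 2.90 with 1 library left out. L1CAM, an adhesion molecule that binds ankyrin, had 3 and 6 counts with DMSO and 63 and 31 with dBET1, a rise of 3.35 on the log2 scale (standard error 0.607, adjusted p = 0.00243, edgeR). With 1 library left out the rise of L1CAM ran from 2.72 to 3.99. CD44, another ankyrin-binding receptor, had 0 counts in all 4 libraries.

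The ERM list held 4 genes, whose FERM domain is shared with protein 4.1, and counts among them NF2 (merlin), a relative of the ERM proteins. It held 0 calls past both thresholds and 2 genes, MSN and NF2, lower by edgeR at an adjusted p under 0.05. Of the 7 genes of calpains, their inhibitor and calmodulin, which act on or bind alpha-II spectrin, 0 passed both thresholds, and 5 were lower at the adjusted p alone. Over all tested genes 25.4% passed both thresholds and 27.6% were lower at the adjusted p alone. At an unadjusted p under 0.05, 2 genes of the ERM list were lower, and of the 7 others 6 were lower. DESeq2 called 0 in either list past both thresholds, with 2 and 5 lower by its adjusted p alone. With total counts only the calmodulin gene CALM2, among the 5 lower, was at a log2 fold change of 0.022. Those lists lay at medians of -0.23 and -0.25, and their log2 fold changes ran from -0.91 to 0.13. The median was 0.048 over all tested genes. It was -0.40 over those with a mean of at least 100 CPM, where all 7 calpain and calmodulin genes lie.

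**Figure D4:**
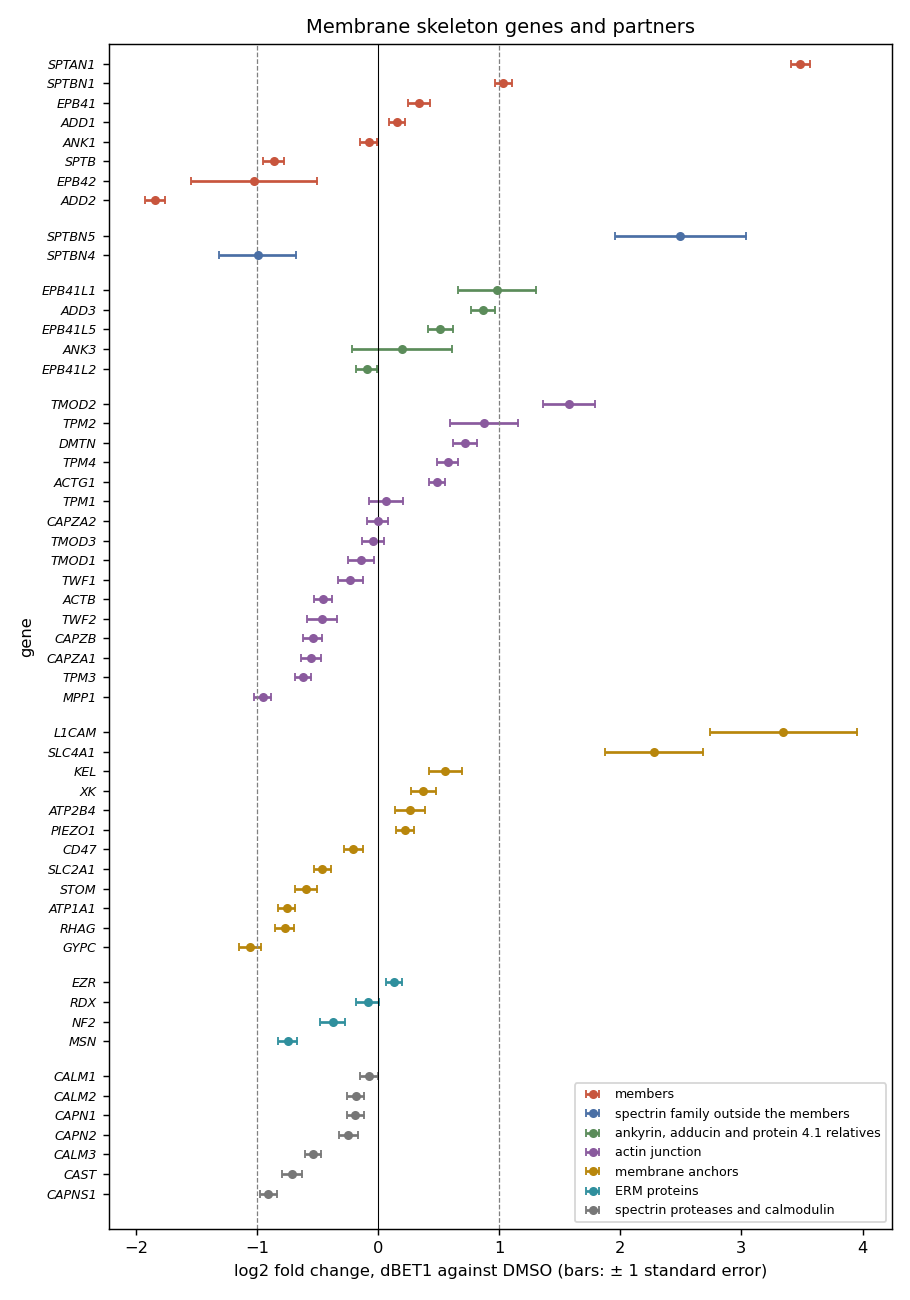
Log2 fold change, dBET1 against DMSO (x axis), of each tested gene in the 8 and in the partner lists (y axis), with bars of 1 standard error and dashed lines at the fold limit of 1. SPTAN1 at 3.48 and ADD2 at -1.84 are the extremes of the 8, and most partner genes lie between the dashed lines.

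Most erythroid markers were lower with dBET1, as were SPTB, ADD2 and GYPC. Of 13 tested erythroid markers, 12 were lower and 0 higher by edgeR at an adjusted p under 0.05. Over all tested genes 27.6% were lower and 28.0% higher. Past both thresholds 5 of the 13 were lower, against 8.54% of all tested genes. The median log2 fold change of these markers was -0.94. It was 0.048 over all tested genes and -0.40 over those with a mean of at least 100 CPM. At an unadjusted p under 0.05 and by DESeq2 the count higher was also 0. The summed level of the erythroid markers was lower in both dBET1 libraries than in both DMSO libraries, and its part in the changes of SPTB, ADD2 and GYPC was not tested. ANK1, EPB41, DMTN and SLC4A1, also genes of the red cell membrane, were not lower past the test. EPB41, DMTN and SLC4A1 were higher at the adjusted p, SLC4A1 from 22 and 9 counts with DMSO. Others were lower at the adjusted p, among them RHAG at a log2 fold change of -0.77, STOM at -0.60 and MPP1 at -0.95. Of the 12 tested membrane anchor genes, 5 were higher and 5 lower at the adjusted p, against 28.0% and 27.6% of all tested genes. Of 7 megakaryocyte markers 4 were tested, and the list summed to 3.68 to 4.38 CPM with DMSO and 8.03 to 9.34 CPM with dBET1.

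**Figure D5:**
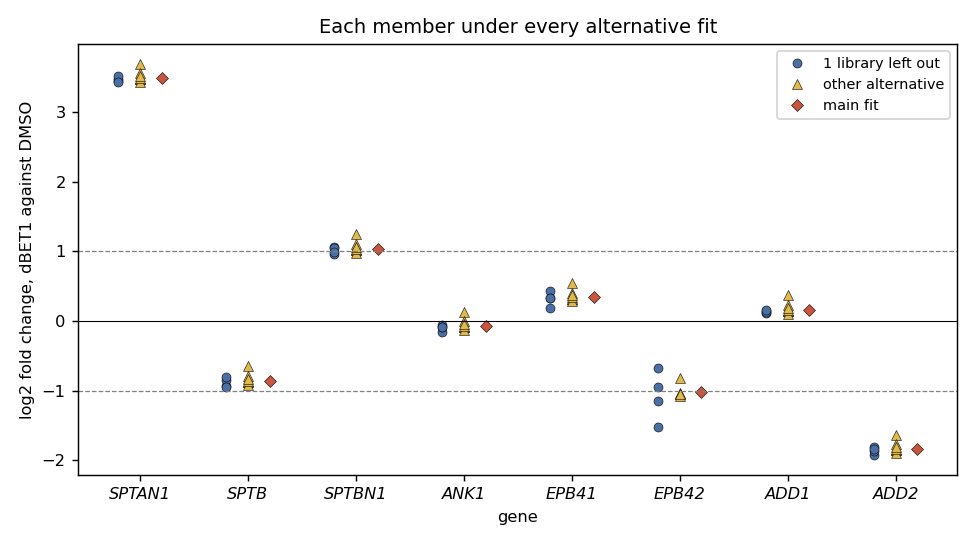
Log2 fold change of each of the 8 genes (y axis) in the reported fit (red diamonds), in fits without 1 library (blue circles) and under the other alternatives (yellow triangles), with dashed lines at the fold limit of 1. SPTAN1 stays between 3.43 and 3.69 and ADD2 between -1.93 and -1.64, SPTBN1 lies on both sides of 1, and ANK1 lies on both sides of 0.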

How the data were processed

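RNA of 4 libraries was sequenced as paired-end reads. Per the labels and the paper's methods, the authors used HISAT2 2.2.0 (hg38) and StringTie and deposited unnormalized counts, whole numbers for each gene. The step from StringTie to counts and its strand setting are not given in the sources used here, so overlapping and antisense genes can share counts. The table names no DMSO column: its columns named NC, the one group beside dBET1, were taken as DMSO by their replicate numbers, and 0 columns were left out. Symbols, positions and exon lengths came from GENCODE release 44, which held 56105 of 64252 identifiers, and 2.57% of counts had no entry. Promoters came from RefSeq, and 11 of 11 matched hg38.

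The members and lists were chosen with earlier results of these data known, and a few genes of the lists are not reported here. Counts were filtered with filterByExpr, scaled with TMM factors (0.918 to 1.08) and compared with the quasi-likelihood test of edgeR 4.0.16 in R 4.3.3, with the group alone and Benjamini-Hochberg adjustment over all 17971 tested genes. Each standard error is the log2 fold change divided by the square root of F. The steps were tested on simulated data with equal numbers of genes raised and lowered, so scaling with mostly higher calls was not tested. Named genes were the 8 members, up to 6 genes per partner list past both thresholds, ANK3, SLC4A1, TMOD1, DMTN and the 3 nearest genes of each called member. ADD3, EPB41L1, EPB41L2, EPB41L5, MPP1, RHAG, STOM, CD44, ANK2, SPTBN4, MSN, NF2, CALM2 and DYNC2I2 were named after their values were seen. Alternatives were DESeq2 1.42.0, its size factors, total counts only, other count filters, counts divided by 2, a replicate block, no fold limit, another exon length and each library left out. Over genes with enough counts, replicates differed by more than counting error (chi-square per degree of freedom 23.6 for DMSO and 8.14 for dBET1), so each library was counted as 1 replicate.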

Additional observations from a re-analysis of the deposited data

How the results depend on the processing

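Of 86 values of the 8 genes under the alternatives, 82 kept their direction and their side of the thresholds, 3 of SPTBN1 dropped inside the fold limit (0.98 with no count filter, 0.95 without DMSO replicate 2 and 0.99 without dBET1 replicate 2), and ANK1 changed sign with total counts only, at 0.13. That scaling moved the median of all genes from 0.048 to 0.26, and its calls were 80.2% higher genes against 66.4%. Of 85 values of the named partner genes, 78 kept both. TMOD1 changed sign with total counts only, at 0.070, and ANK3 ran from -0.053 to 0.42 with 1 library left out, below 0 without DMSO replicate 2 (-0.034) and without dBET1 replicate 2 (-0.053). With 1 library left out, 2 to 3 members were called, with 1 to 2 higher, and 2 with no count filter, with 1 higher. Without the fold limit 5 of the 8 passed, 2 of them lower. For partner genes called, the count was 2 with at least 10 counts in every library (2 higher, 0 lower). That filter left out SPTBN5, SLC4A1 and L1CAM, each with a DMSO library under 10 counts, and GYPC was inside the limit at -0.99. The count was 7 higher and 0 lower with total counts only, and 33 without the fold limit (14 higher, 19 lower). The lower partner genes numbered 2 with DESeq2, with its size factors and with no count filter, and 0 to 2 with 1 library left out (0 without DMSO replicate 2, where GYPC was inside the limit).

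With the longest annotated transcript as length, the share of SPTB was 43.4% with DMSO and 17.4% with dBET1, of SPTBN1 54.9% and 81.9%, and of ADD2 24.2% and 6.63%. The ratio of SPTAN1 to SPTBN1 was then 0.239 and 1.31. The labels do not say whether same-numbered libraries were handled together. The correlation of same-numbered deviations was -0.0075, which with 2 libraries a group cannot settle it. With the replicate block 3 members were called, as without it. With 2 libraries a group, SDs rest on 2 values, and EPB42, ANK3, SPTBN5, L1CAM and SLC4A1 on few counts.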
